A study of Mus musculus with 24 samples.

Results

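Dopamine and serotonin reach the hippocampus through fibres from the midbrain and the raphe nuclei, and the cells there answer through G protein-coupled receptors. The D1-like dopamine receptors (Drd1, Drd5) and the serotonin receptors Htr4 and Htr7 couple to Gs and raise cAMP, whereas Drd2, Htr1a and Htr1b couple to Gi and Go and lower it. Htr2a and Htr2c couple to Gq, which activates phospholipase C. These 9 receptor genes were looked up by name in a count table of nuclear mRNA from mouse hippocampus, and all 9 were found and passed the filter on low counts among 37598 genes tested.

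The libraries came from adult male C57/BL6N mice that received either kainic acid (KA) or saline (sham, SH) by injection into the deep cortex next to the hippocampus. KA elicits a status epilepticus, and KA animals without convulsive seizures had been left out of the study. All mice, sham included, had the same surgery and buprenorphine, and right hippocampi were taken 24 h later. Nuclei were sorted with an antibody to NeuN, a neuronal nuclear protein, into a positive fraction (neurons) and a negative fraction (glia), so "glia" is defined by the absence of NeuN and not by a glial antigen. The 8 mice of each treatment were pooled into 3 replicates (1 of 4 mice and 2 of 2 mice), which gave 3 libraries in each of KA neurons, SH neurons, KA glia and SH glia.

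Library totals over the genes tested ran from 7738437 to 40339316 counts. The SH glia library 1 and the KA glia library 2 were made from less RNA (about 0.05 ng against 1 ng) with 15 instead of 10 cycles of PCR. The replicate 3 libraries had the fewest genes detected in each group, 36165 to 42160 against 40660 to 47748 in the others. Summed over 14 neuronal genes, NeuN- libraries held 520 to 2194 CPM (counts relative to library size, scaled with TMM factors) and NeuN+ libraries 6899 to 11548 CPM, so neuronal transcripts were also counted in the glial fraction. In bulk libraries a smaller number of cells of a type and less RNA per cell cannot be told apart.

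Drd1 lies on chromosome 13 at chr13:54051183-54055705 (GRCm38, minus strand) and Htr1a on the same chromosome at chr13:105443639-105448122 (plus strand). The bases just before these 2 genes are shown because they are the members whose levels passed the test between KA and SH. They come from RefSeq's promoter windows on GRCm38.p6, restricted to the part outside the annotated gene and written 5′ to 3′ on the gene's strand. Capitals mark CpG dinucleotides, which DNA methylation can act on.

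Drd1, chr13:54055706-54055908, minus strand: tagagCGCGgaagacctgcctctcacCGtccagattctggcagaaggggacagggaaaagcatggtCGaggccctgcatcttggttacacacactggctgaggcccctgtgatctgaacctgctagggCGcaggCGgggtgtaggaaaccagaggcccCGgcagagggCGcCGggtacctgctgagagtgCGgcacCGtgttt

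Htr1a, chr13:105443443-105443638, plus strand: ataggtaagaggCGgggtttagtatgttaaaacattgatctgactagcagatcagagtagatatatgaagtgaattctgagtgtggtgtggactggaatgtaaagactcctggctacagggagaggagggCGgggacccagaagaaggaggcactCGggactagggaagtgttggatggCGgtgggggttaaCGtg

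The Drd1 stretch of 203 bases held 11 CpGs and the Htr1a stretch of 196 bases held 5. In the full 250 bases before the RefSeq start sites, the counts were 15 for this Drd1 start, 5 for a second Drd1 start downstream, and 6 for Htr1a, against a median of 6 (quartiles 2 and 16) over 32851 promoters. Windows of 8 of the 9 members were used. Those on chromosome 18, which holds Htr4, were left out when member windows were selected. Htr7 had 41 CpGs and Drd5 had 35, more than 98.9% and 97% of promoters, while Htr2a had 4, Htr2c 5, Htr1b 6 and Drd2 15. The cAMP response element TGACGTCA (present in 1.55% of all promoters), the AP-1 motif TGANTCA (6.75%) and the E-box CACGTG (6.02%) were searched on both strands. There was 1 match, to AP-1 in the Htr2c window.

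**Figure D1:**
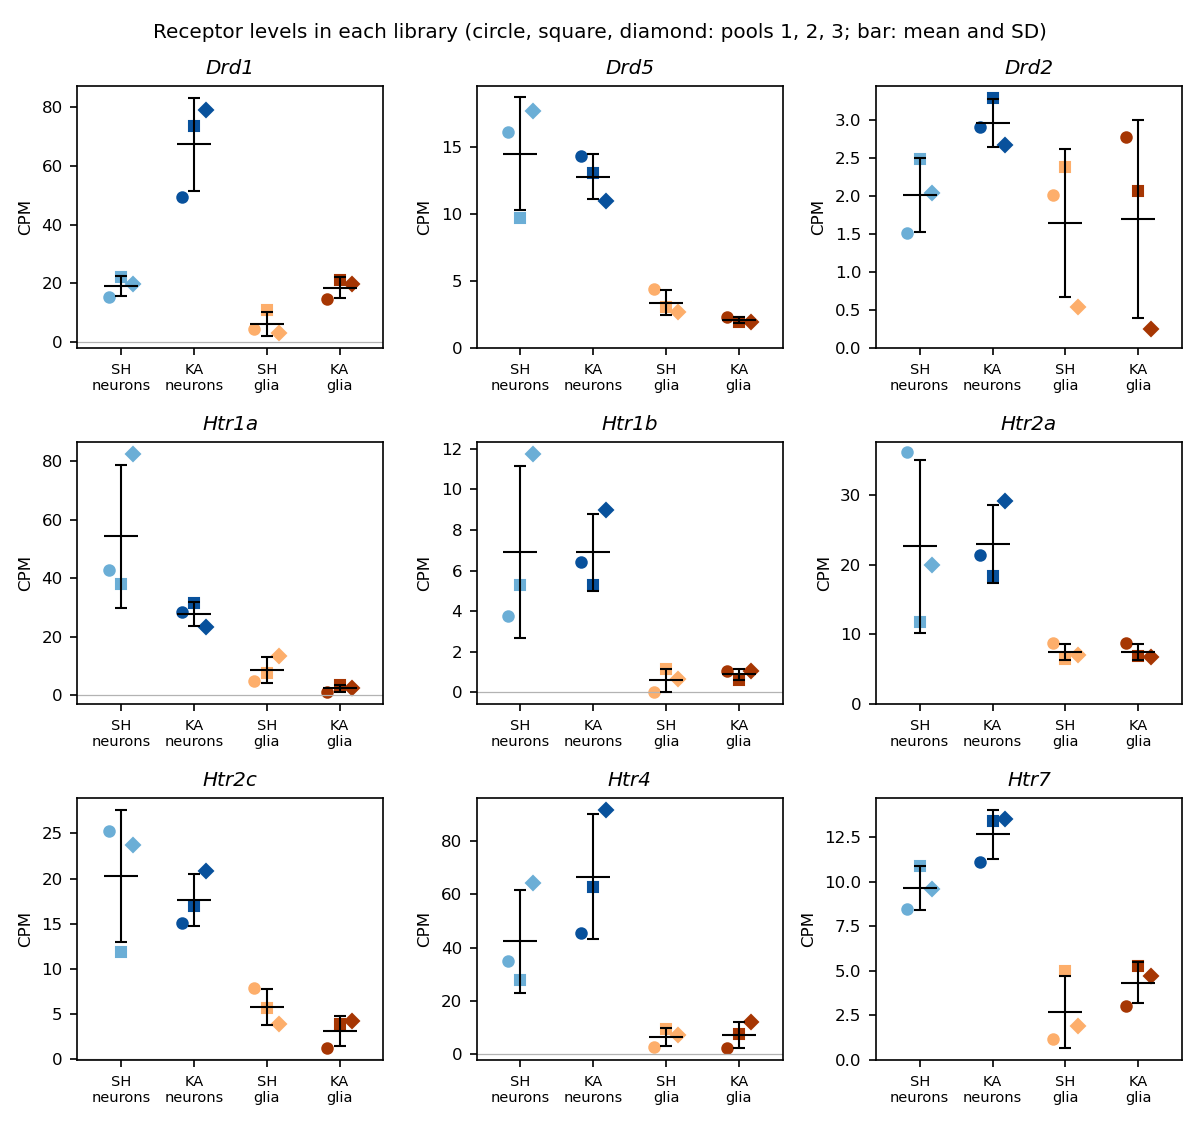
Level of each receptor gene in CPM (y axis) in the 12 libraries, by group (x axis). Symbols stand for pools 1, 2 and 3, and black bars for the group mean and SD. Drd1 was higher in every KA library than in any SH library of its fraction, and Htr1a was lower in every KA library of its fraction.

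Drd1 was the only member upregulated in neurons after KA. SH neurons measured 15.5, 22.0 and 19.9 CPM and KA neurons 49.3, 73.6 and 79.0 CPM, so that the lowest KA library lay well above the highest SH library. The fold change was 3.52 (logFC 1.81, SE 0.41, 95% interval 0.95 to 2.68, edgeR quasi-likelihood FDR 0.169, n = 3 pools a group). The values rested on 577 to 2122 counts a library in KA neurons and 256 to 522 in SH neurons.

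Drd1 was also upregulated in glia. SH glia measured 4.42, 10.95 and 3.23 CPM and KA glia 14.7, 21.3 and 19.8 CPM, again without overlap, although SH glia 2 stood well above the other two SH libraries. The fold change was 3.00 (logFC 1.58, SE 0.41, 95% interval 0.71 to 2.46, edgeR FDR 0.222). The KA effect in neurons exceeded that in glia by 0.23 on the log2 scale (95% interval -0.97 to 1.43), which did not pass the test.

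Htr1a, an autoreceptor on raphe neurons that is also dense on hippocampal principal cells, was downregulated in glia. It measured 4.98, 7.59 and 13.5 CPM in SH glia and 1.13, 3.40 and 2.68 CPM in KA glia. Every KA library lay below every SH library, with a fold change of 0.281 (logFC -1.83, SE 0.46, 95% interval -2.80 to -0.86, edgeR FDR 0.188). Counts were low here, 13 to 89 in KA glia and 62 to 452 in SH glia.

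In neurons the Htr1a values were 42.9, 38.0 and 82.6 CPM in SH and 28.4, 31.6 and 23.5 CPM in KA. The ranges did not overlap, but the logFC of -0.97 (SE 0.43, 95% interval -1.89 to -0.05) had an unadjusted p of 0.0401 and an edgeR FDR of 1.00, and without the SH library at 82.6 CPM it was -0.54. The effect in neurons minus that in glia was 0.86 (95% interval -0.45 to 2.18), so the contrast of fractions did not pass either. Across all 37598 genes 0 (0%) had a difference of effects past FDR 0.25 by edgeR, 502 had an unadjusted p under 0.05, and none of these were members. With the pool number as a replicate block 109 genes passed with a larger logFC in neurons and 42 with a larger logFC in glia, and by DESeq2 20 and 19 passed, but in neither case a member.

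**Figure D2:**
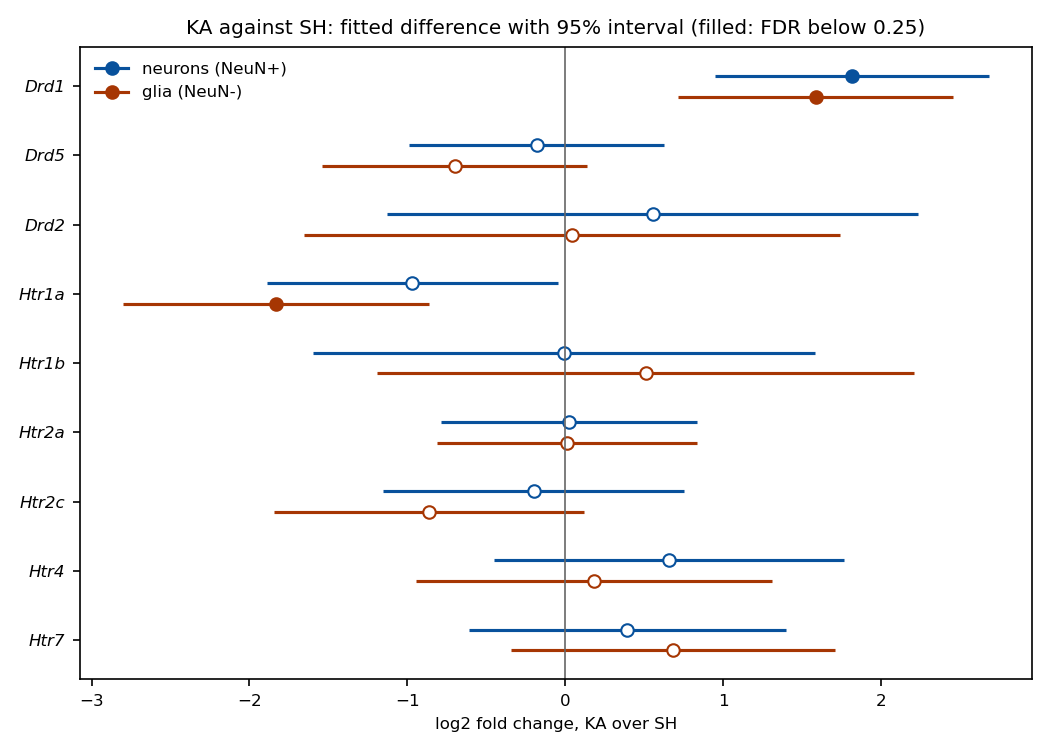
Fitted log2 fold change of KA over SH (x axis) for the 9 receptor genes in neurons and glia. Lines are 95% intervals and filled points passed FDR 0.25, which were Drd1 in both fractions and Htr1a in glia.

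Against the whole table, 1 of 9 members was upregulated in neurons, where 0.279% of all genes were, and 0 were downregulated, where 0.0612% were. In glia 1 member was upregulated (0.442% of all genes) and 1 downregulated (0.306%). The members were chosen with earlier results of these data known, so these shares do not test an enrichment. The median logFC of the members was 0.02 in neurons and 0.04 in glia, beside 0.00 and 0.14 over all genes tested. Over all genes with at least 10 counts in every library, the median was -0.04 in neurons and -0.04 in glia. In neurons the KA libraries lay wholly above the SH libraries for 3 members, Drd1, Drd2 and Htr7 (5.27% of all genes), and wholly below for 1, Htr1a (4.45%). In glia they lay wholly above for Drd1 (3.61%) and wholly below for Drd5 and Htr1a (3.00%).

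The calls depended on single libraries. When each of the 12 libraries was left out in turn, the logFC of Drd1 in neurons stayed between 1.68 and 2.00, but its FDR passed in 6 of 12 fits. It was lost without any of the 3 SH neuron libraries (1, 2 or 3), without KA neurons 2 or 3, and without KA glia 2. In glia, Drd1 ran from 1.26 to 2.29 and passed only without KA glia 1 or SH glia 2. Htr1a in glia ran from -2.24 to -1.36 and passed in 7 of 12 fits, being lost without any of the 3 KA glia libraries, without SH glia 3 and without KA neurons 2. Calls over all genes moved in these fits too. In neurons 10 (without SH neurons 1) to 184 (without KA glia 3) were upregulated, against 105 with all 12 libraries. In glia 66 (without KA glia 3) to 314 (without SH glia 2) were, against 166. Without both low-input libraries the logFC was 1.80 for Drd1 in neurons (FDR 0.261), 1.28 for Drd1 in glia (FDR 1.00) and -2.57 for Htr1a in glia (FDR 0.376).

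**Figure D3:**
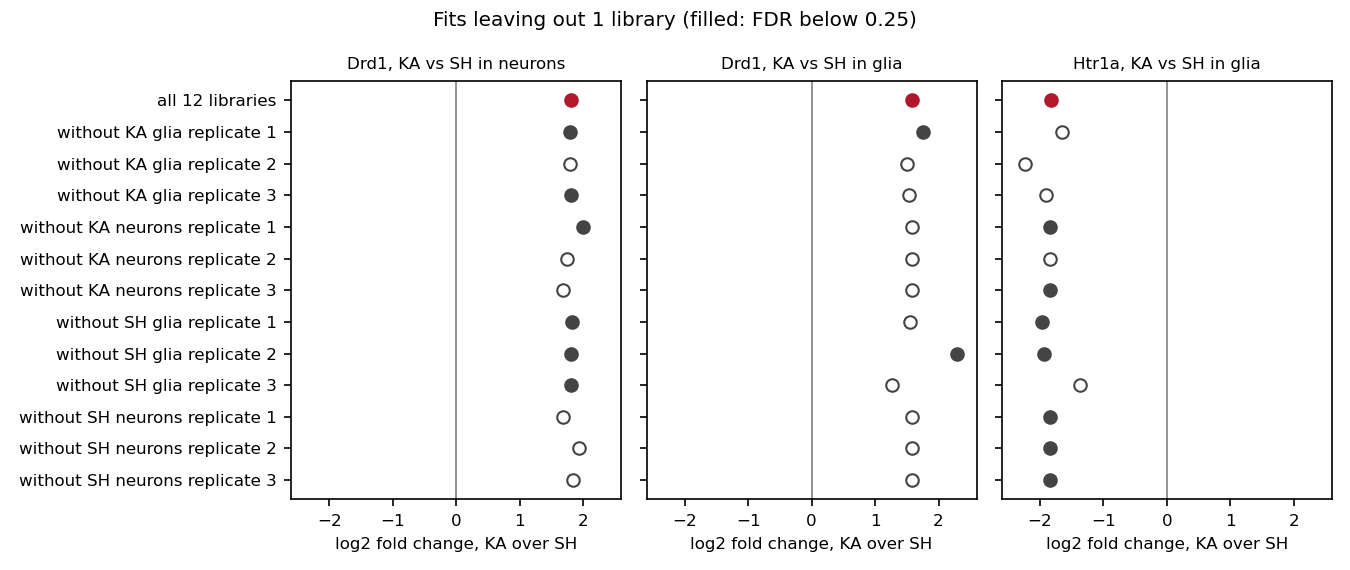
Log2 fold change of KA over SH (x axis) in fits with all 12 libraries (red) and with each left out (grey), for the 3 calls among the receptor genes. Filled points passed FDR 0.25. The sign held in every fit, and the call held in 6, 2 and 7 of the 12 fits from left to right.

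Summed marker levels of some cell types also differed between KA and SH, and those of others overlapped. In neurons the sums of the 14 neuronal genes overlapped (6899 to 11548 CPM in SH, 6915 to 8627 CPM in KA). So did the sums of 7 interneuron genes (311 to 571 CPM in SH, 435 to 505 CPM in KA). The 3 mossy cell genes overlapped too (75.3 to 111 CPM in SH, 70.1 to 77.1 CPM in KA). In neurons the summed level of 4 dentate granule cell genes was 501 to 692 CPM in SH and 354 to 365 CPM in KA, with 1 of the 4 downregulated. The single logFC values ran from -1.40 for Calb1, the gene called, to 0.09 for Prox1. The 4 CA1 genes summed to 358 to 467 CPM in SH and 324 to 348 CPM in KA (0 of 4 past the test). They ran from a logFC of -1.01 for Fibcd1 to 0.06 for Mpped1. The 4 CA2 genes summed to 140 to 298 CPM in SH and 101 to 116 CPM in KA (0 of 4 past the test). The 6 genes of striatal neurons, cells known for Drd1 and Drd2, summed to 33.3 to 65.5 CPM in SH neurons and 82.0 to 108 CPM in KA neurons (0 of 6 past the test). Their logFC went both ways, from -0.33 for Six3 and -0.18 for Adora2a to 0.93 for Rgs9 and 1.76 for Syndig1l. None of these lists had a gene at 0 in a whole group, and their part in the Drd1 and Htr1a results was not tested.

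For the glial fraction the neuronal genes gave a reference level. In the same pools, NeuN- libraries held 10.0%, 25.2% and 19% of the summed NeuN+ level of the 14 neuronal genes in SH and 7.53%, 14.7% and 22.7% in KA. For Drd1 the shares were 28.5%, 49.8% and 16.2% in SH and 29.8%, 28.9% and 25.02% in KA. For Htr1a they were 11.6%, 20.0% and 16.4% in SH and 3.97%, 10.8% and 11.4% in KA. Drd1 was thus above the share of the summed neuronal genes in all 3 KA pools and in 2 of 3 SH pools. Htr1a was below it in all 3 KA pools and in 2 of 3 SH pools. The shares of 7 interneuron genes, also summed, were higher, 18.7%, 40.4% and 28.1% in SH and 14.0%, 19.8% and 29.9% in KA, and Drd1 lay above these in 2 of 3 pools of each treatment. Single neuronal genes spread widely. In SH their logFC of neurons over glia ran from 0.21 (Tubb3) to 3.05 (Grin1), a range that held Drd1 (1.63) and Htr1a (2.64). In KA it ran from -0.27 (Tubb3) to 3.30 (Slc17a7), beside 1.86 for Drd1 and 3.50 for Htr1a. Among glial markers, the 6 oligodendrocyte genes summed to 13947 to 29206 CPM in SH glia and 7326 to 13642 CPM in KA glia (0 of 6 past the test). The 4 genes of oligodendrocyte precursors summed to 1304 to 2309 CPM in SH glia and 497 to 740 CPM in KA glia, with Cspg4 downregulated. Of the microglial and astrocyte genes, 1 of 7 each was downregulated, P2ry12 (logFC -2.38, edgeR FDR 0.0826) and Aldoc (logFC -1.76, edgeR FDR 0.245). The other microglial genes had a logFC up to -0.09 (C1qb). The astrocyte genes went both ways, up to 0.68 for Aqp4 and 1.94 for Gfap. How far these shifts moved the glial Drd1 and Htr1a values was not tested.

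The other D1-like receptor, Drd5 (chr5:38319367-38322518, plus strand), passed the test in neither fraction. In neurons it measured 16.1, 9.74 and 17.7 CPM in SH and 14.3, 13.05 and 10.98 CPM in KA, overlapping ranges with a logFC of -0.18 (95% interval -0.99 to 0.62). In glia all 3 KA values (2.35, 1.95 and 1.94 CPM) lay below the SH values (4.42, 3.07 and 2.66 CPM), with a logFC of -0.70 (95% interval -1.54 to 0.14, edgeR FDR 1.00). Of the exon bases of Drd5, 48.6% are shared with a gene on the opposite strand, Gm26560, and reads were counted without strand, so its level is uncertain.

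Drd2 (chr9:49340627-49408177, plus strand), the D2-like member, was low in all groups, with 6 to 95 counts a library. Neurons measured 1.51, 2.49 and 2.04 CPM in SH and 2.90, 3.30 and 2.67 CPM in KA, a logFC of 0.55 with a 95% interval of -1.13 to 2.23. In glia the values were 2.01, 2.39 and 0.54 CPM in SH and 2.78, 2.06 and 0.25 CPM in KA (logFC 0.04, 95% interval -1.66 to 1.74). At this depth a change of Drd2 could not be resolved.

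Among the Gs-coupled serotonin receptors, Htr4 had the largest positive value in neurons after Drd1. It measured 34.8, 27.9 and 64.2 CPM in SH neurons and 45.5, 62.7 and 91.6 CPM in KA neurons, ranges that overlapped, with a logFC of 0.65 (95% interval -0.45 to 1.76). In glia it ranged from 2.65 to 9.44 CPM in SH and from 2.35 to 12.03 CPM in KA (logFC 0.18). Htr7 (chr19:35958734-36057507, minus strand) measured 8.47, 10.9 and 9.59 CPM in SH neurons and 11.1, 13.4 and 13.5 CPM in KA neurons, without overlap but with a logFC of only 0.39 (95% interval -0.61 to 1.396). In glia Htr7 measured 1.21, 5.01 and 1.88 CPM in SH and 3.04, 5.28 and 4.69 CPM in KA (logFC 0.68, 95% interval -0.34 to 1.71).

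Htr1b (chr9:81628291-81633828, minus strand), a terminal autoreceptor, had fewer than 300 counts in every library. Neurons measured 3.75, 5.27 and 11.8 CPM in SH and 6.41, 5.28 and 8.99 CPM in KA, a logFC of -0.01 (95% interval -1.60 to 1.58). In SH glia 1 it had 0 counts, which allows up to 0.241 CPM at 3 counts, and the other glial libraries held 0.57 to 1.12 CPM. Of its exon bases, 18.0% are shared with D430036J16Rik on the opposite strand.

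The Gq-coupled receptors showed no call. Htr2a (chr14:74640840-74709494, plus strand) measured 36.1, 11.8 and 20.0 CPM in SH neurons and 21.4, 18.3 and 29.1 CPM in KA neurons (logFC 0.02, 95% interval -0.79 to 0.83). Its glial values were 8.76, 6.47 and 7.08 CPM in SH and 8.78, 6.92 and 6.75 CPM in KA (logFC 0.01, 95% interval -0.82 to 0.83). Htr2c (chrX:146962513-147197277, plus strand) measured 25.3, 11.9 and 23.7 CPM in SH neurons and 15.1, 16.97 and 20.8 CPM in KA neurons (logFC -0.20). In glia it was 7.88, 5.65 and 3.85 CPM in SH and 1.22, 3.94 and 4.20 CPM in KA (logFC -0.86, 95% interval -1.84 to 0.12). Htr2c is a well-known transcript of the choroid plexus, and the SH glia 1 library, which had its highest glial value, also had the highest sum of 7 choroid plexus genes (196 CPM against 18.7 to 45.6 CPM in the other glial libraries). SH neurons 1 likewise had the highest Htr2c value and the highest choroid plexus sum of the NeuN+ libraries (92.5 CPM against 32.8 to 52.0 CPM). SH neurons 2 was the lowest NeuN+ library in both (11.9 and 32.8 CPM). The values did not go together in every library. KA glia 1 had the lowest glial Htr2c value (1.22 CPM) but a choroid plexus sum of 45.6 CPM. The part of choroid plexus RNA in the Htr2c values was not tested.

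**Figure D4:**
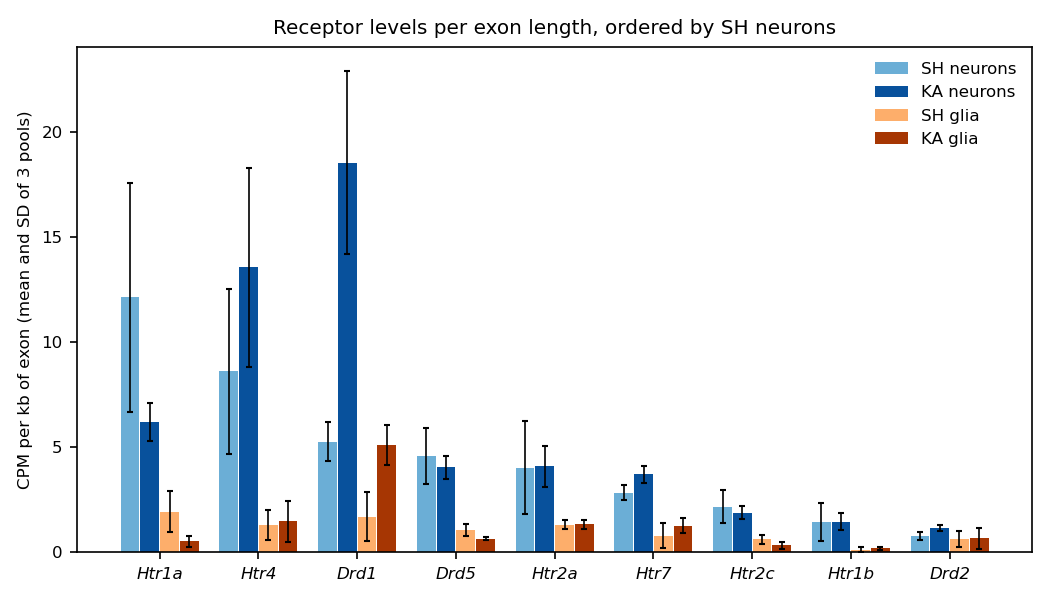
Mean CPM per kb of exon (y axis, linear from 0) of each receptor gene (x axis, ordered by SH neurons) in the 4 groups, with the SD of 3 pools. Htr1a led in SH neurons at 12.1 and Drd1 in KA neurons at 18.6.

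Per exon length, the order of the receptors differed between SH and KA neurons. In SH neurons Htr1a had the highest level, 12.1 ± 5.46 CPM per kb (SD, n = 3), followed by Htr4 (8.62 ± 3.93), Drd1 (5.28 ± 0.92), Drd5 (4.60 ± 1.33) and Htr2a (4.03 ± 2.21). Htr7 (2.84 ± 0.36), Htr2c (2.18 ± 0.79), Htr1b (1.47 ± 0.90) and Drd2 (0.79 ± 0.19) came below, and each neighbouring pair in this order differed by less than the sum of their SDs. In KA neurons Drd1 came first at 18.6 ± 4.37 CPM per kb, then Htr4 at 13.6 ± 4.74 and Htr1a at 6.21 ± 0.91. In SH glia the means of the members ran from 0.13 CPM per kb for Htr1b to 1.94 for Htr1a. In KA glia Drd1 stood at 5.12 ± 0.95 CPM per kb, with the other members between 0.19 and 1.49.

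In SH, 8 of the 9 members were higher in neurons than in glia, where 12.3% of all genes were higher and 7.57% lower, and none of the members was lower. The logFC was 1.63 for Drd1, 2.11 for Drd5, 2.64 for Htr1a, 3.49 for Htr1b, 1.60 for Htr2a, 1.81 for Htr2c, 2.70 for Htr4 and 1.83 for Htr7, with edgeR FDRs from 0.00131 to 0.0225. Drd2 had a logFC of 0.30 (95% interval -1.39 to 1.99, edgeR FDR 0.939). In KA the same 8 members were higher in neurons (11.2% of all genes higher, 6.62% lower), from 1.54 for Htr7 to 3.50 for Htr1a, and Drd2 had a logFC of 0.81 (edgeR FDR 0.761). The value of Htr7 in KA did not pass without KA glia 1 (edgeR FDR 0.391). Both fractions of a pool came from the same mice, a pairing that the main fit left out.

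**Figure D5:**
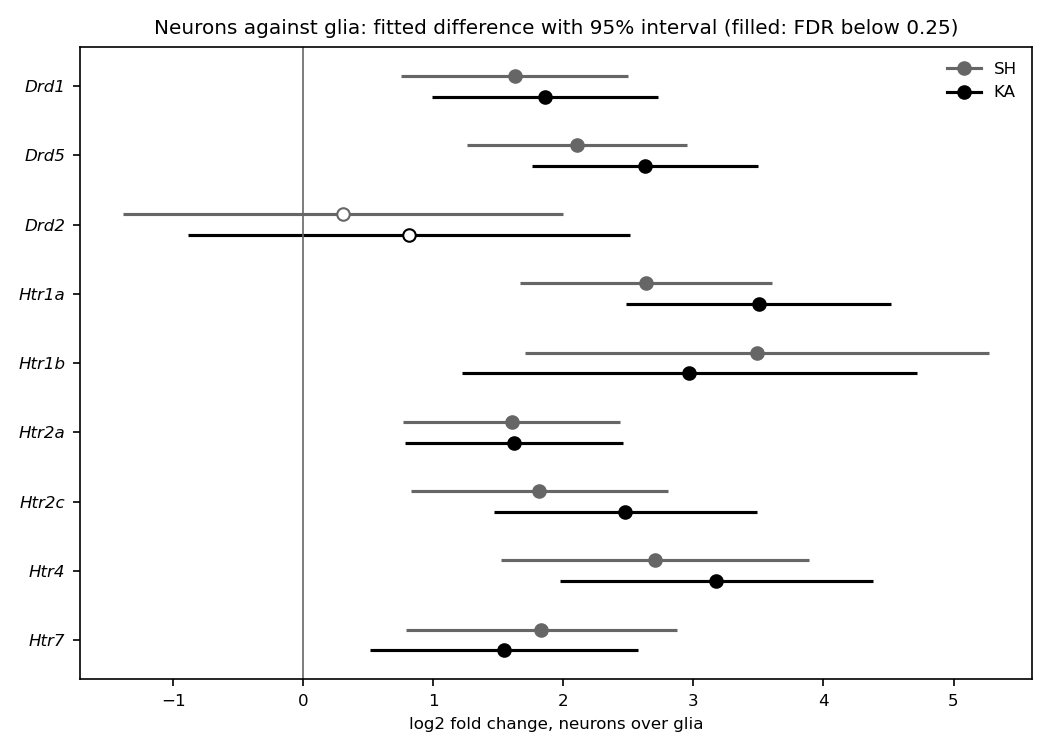
Fitted log2 fold change of neurons over glia (x axis) for the 9 receptor genes in SH and KA. Lines are 95% intervals and filled points passed FDR 0.25, which all but Drd2 did.

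The other genes of dopamine and serotonin signalling were looked up from 6 lists with 68 genes, all of which were tested. In neurons 0 were upregulated (0.279% of all genes) and 1 downregulated (0.0612%), with a median logFC of -0.01 beside 0.00 over all genes. The gene was Aldh2, a mitochondrial aldehyde dehydrogenase that clears the aldehydes made by monoamine oxidase. It measured 40.7, 38.1 and 52.5 CPM in SH neurons and 19.2, 15.6 and 18.6 CPM in KA neurons (logFC -1.30, edgeR FDR 0.169). With the replicate block 9 of the 68 passed in neurons, where 730 of all 37598 genes passed as upregulated and 417 as downregulated.

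In glia 1 of the 68 was upregulated (0.442% of all genes) and 2 were downregulated (0.306%), with a median logFC of -0.20 beside 0.14 over all genes. The latter depended on the filter. Over the 18632 genes with at least 10 counts in every library it was -0.04. Htr2b, a Gq-coupled serotonin receptor, measured 1.85, 3.07 and 1.61 CPM in SH glia and 5.30, 7.46 and 11.3 CPM in KA glia (logFC 1.88, edgeR FDR 0.203). In neurons Htr2b measured 2.66, 4.17 and 3.22 CPM in SH and 7.77, 8.05 and 11.1 CPM in KA, also without overlap but not past the test. Gnai1, an inhibitory G protein alpha subunit, measured 149, 97.8 and 191 CPM in SH glia and 33.0, 39.0 and 57.5 CPM in KA glia (logFC -1.76, edgeR FDR 0.0653). Ppp1r1b, which encodes DARPP-32, a phosphatase inhibitor controlled by cAMP, measured 14.9, 11.6 and 17.3 CPM in SH glia and 4.78, 5.16 and 3.46 CPM in KA glia (logFC -1.71, edgeR FDR 0.128). With the replicate block 13 of the 68 passed in glia, where 1305 of all 37598 genes passed as upregulated and 1566 as downregulated.

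By branch, the median logFC in glia was -0.44 over 16 genes of the Gs and Golf branch, -0.43 over 8 of the Gi and Go branch and -0.23 over 9 of the Gq branch. It was 0.18 over 14 genes of synthesis, transport and breakdown, -0.26 over 11 of desensitisation and receptor partners and -0.11 over 10 other receptors. In neurons these medians ran from -0.26 (Gq branch) to 0.15 (other receptors). Of the other receptors, Htr1d, Htr1f, Htr2b, Htr3a, Htr3b, Htr5a, Htr5b and Htr6 had reads in all 12 libraries and Drd3 and Drd4 in 11. In neurons Drd4 measured 0.24, 2.19 and 0.98 CPM in SH and 3.25, 6.39 and 11.1 CPM in KA, without overlap. Its logFC of 2.59 was the highest of these 10 receptors and above the 1.81 of Drd1, but did not pass the test. It rested on 4 to 275 counts a library in neurons. The calls in these lists depended on single libraries: left out in turn, Gnai1 passed in 9 of 12 fits (not without KA glia 1 or 2 or SH glia 3), and Ppp1r1b in 7 of 12 (not without KA glia 1, 2 or 3 or SH glia 1 or 3). Htr2b and Aldh2 each passed in 4 of 12 fits. Htr2b was kept without KA glia 1, SH glia 2 or SH neurons 1 or 2, and Aldh2 without KA glia 3 or SH glia 1, 2 or 3.

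Across the 12 libraries the protein-coding genes whose log2 CPM most resembled Drd1 were Rgs6 (Pearson r 0.97), Slc37a1 (0.97) and Itga11 (0.97), out of 20337 compared. For Htr1a they were Syt3, Mpped2 and Efcc1, each at 0.99, and for Htr4 they were Col5a1, Nrsn1 and Rapgef4, each at 0.99. Emb was the closest gene to Drd5 (0.98) and the next closest to Htr2a (0.95) after Zfp711 (0.96). The leading genes for the rest were Krt20 for Drd2 (0.97), D430019H16Rik for Htr1b (0.99), Fgf9 for Htr2c (0.98) and Clvs1 for Htr7 (0.99). The remaining genes of each set of 3 were Slc6a16 and Slc38a4 (Drd2), Pip5k1b and Elovl4 (Drd5), Tnfaip8l3 and Hivep2 (Htr1b), Gm5415 (Htr2a), Dlx1 and Car4 (Htr2c) and Frmpd3 and Rasd1 (Htr7). These are descriptions over 12 libraries that share the split into fractions and the depth of each library.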

How the data were processed

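The deposited file held raw counts per gene and library, whole numbers that the authors made by trimming reads with Trim Galore 0.4.3, aligning them with Rsubread to mm10 and counting them over GENCODE M16 genes with featureCounts, without strand. Methylation libraries of the same study were not used here. Columns were matched to samples by title. Genes passing filterByExpr (minimum count 10, minimum total 15) were fitted over all 12 libraries with edgeR 4.0.16 in R 4.3.3 (quasi-likelihood, 4 group means, TMM, Benjamini-Hochberg FDR below 0.25 over all 37598 genes), whose adjusted p-values are the FDRs given. Alternatives included DESeq2 1.42.0 and a fit with the replicate block. CPM used the TMM library sizes, and the levels per kb used exon bases of the GENCODE M21 annotation. The scripts were tested on simulated data, where recovery of the changed genes was required only at a spread below that of these data.

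Same-numbered KA and SH libraries deviated together from their group means (r 0.26 to 0.55 in neurons and 0.46 to 0.76 in glia). The fit with the replicate block took the numbers to pair the samples. The main fit left this pairing out, and also that of the fractions of a pool. Unlike-numbered libraries were not compared, so features shared by number, such as pool size, cannot be told apart from pairing. Replicates were pools of separate mice. Which library was sequenced on which of the study's 2 instruments is not given in the sources used here, so a batch by instrument was not tested. The 9 receptors, the pathway lists and the markers were chosen with earlier results of these data known. All members were named, with every listed pathway gene past FDR 0.25, each other receptor by its count of libraries with reads, and the 3 genes most like each member by Pearson r of log2 CPM (prior count 2). The values of Drd4 in neurons were added after seeing them. Limits from counts of 0 cover counting error only (3 counts).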

Additional observations from a re-analysis of the deposited data

How the results depend on the processing

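Under the alternatives no called member changed direction, and the 8 neuron-enriched members in SH and in KA were 7 to 8 under each. With the replicate block, Drd1 had a logFC of 1.80 in neurons (FDR 0.00304) and 1.76 in glia (FDR 0.00332) and Htr1a -1.85 in glia (FDR 0.00612), all by edgeR, and the block changed no member's call. The 1 member past FDR 0.25 in neurons became 0 without the 2 low-input libraries, with only replicates 1 and 2 (chosen after seeing the data) and at FDR 0.05. The 2 in glia became 1 with no low-count filter and 0 with separate fits, without the low-input libraries, with only replicates 1 and 2 and at FDR 0.05. Leaving out 1 library gave 0 to 1 in neurons and 0 to 2 in glia. Of the pathway genes, the 1 in neurons became 4 with DESeq2, 3 with edgeR 4, 0 with no filter, 4 with at least 10 counts in every library, 7 with separate fits, 9 with the replicate block, and 0 without the low-input libraries, with only replicates 1 and 2 and at FDR 0.05. The 3 in glia became 7 with DESeq2, 9 with at least 10 counts, 0 with separate fits, 13 with the replicate block, and 0 without the low-input libraries, with only replicates 1 and 2 and at FDR 0.05. Leaving out 1 library gave 0 to 1 in neurons and 0 to 3 in glia. Over all genes, 105 up and 23 down in neurons became 730 and 417 with the block, 305 and 151 with DESeq2, 409 and 247 with separate fits, 193 and 58 with edgeR 4, 329 and 136 with at least 10 counts, and 24 and 0 with only replicates 1 and 2. In glia 166 and 115 became 1305 and 1566, 365 and 645, 129 and 17, 284 and 227, 443 and 760, and 6 and 0. Without the low-input libraries the counts were 73 and 6 in neurons and 40 and 1 in glia. The 0 genes with a difference of effects became 109 and 42 with the block, 20 and 19 with DESeq2, 8 and 7 with at least 10 counts and 4 and 5 with no filter. The cause of these shifts was not tested. Drd2 and Htr1b were not tested under the filter of at least 10 counts in every library. Depth limits Drd2 (6 to 95 counts a library) and Htr1b (0 to 288). Glial Htr1a, Htr2c, Htr7, Drd5 and Htr4 had as few as 13, 14, 15, 27 and 27 counts.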
